A study of Mus musculus with 5 samples.

Results

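Muc19, Smgc, Defb1, Defb45, Bpifa1, Dcpp1, Wfdc2, Wfdc18, Sprr1a and Fam25c, 10 of the 24860 gene symbols in the matrices, were followed through the cells of mouse mammary tumours. All 10 symbols were found in the files. They were chosen by name from earlier results on the same libraries, in which several of them separated progesterone from placebo tumour cells. Their levels by treatment in tumour cells are therefore given as a description, with no test.

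The tumours grew from SSM2, a mouse mammary tumour cell line, injected into the fourth mammary gland on the left side of mice aged 10 to 12 weeks. Each mouse received a pellet under the skin of the neck, of 60 mg with a release time of 60 days, that held progesterone or placebo, and tumours were taken 28 to 62 days later. Both groups thus carried the same cell line and a pellet, and differed in what the pellet held. The day on which the tumour of each library was taken is not given here. Single cells were profiled with a droplet method that counts the 3' ends of transcripts by unique molecular identifiers (UMIs), in 5 libraries. The titles name 2 batches: Placebo 1 was run with Progesterone 1 in batch 1, and Placebo 2 with Progesterone 2 and Progesterone 3 in batch 2. No label states that libraries came from separate animals. Progesterone 2 and 3 bear a common identifier in their deposited names, with an L in one and an R in the other. Spread between libraries may thus be technical or lie within 1 animal.

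Glands such as the salivary and airway glands secrete gel-forming mucins that hold water, together with small proteins that act on bacteria. Muc19 encodes a gel-forming mucin of mucous salivary glands. Smgc encodes a protein of the developing submandibular gland, from the same locus as Muc19. Defb1 and Defb45 encode beta-defensins, which are small cationic peptides, and Bpifa1 encodes a surfactant-like protein of airway fluid. Dcpp1 encodes a demilune cell and parotid protein. Wfdc2 and Wfdc18 encode secreted proteins with whey acidic protein domains, the fold of many protease inhibitors. Sprr1a encodes a precursor of the cornified envelope that stays inside the cell, so the name of a gland secretion does not cover it. Fam25c belongs to a small family whose function is little known. Progesterone acts through a nuclear receptor that binds DNA, and glucocorticoid, androgen and mineralocorticoid receptors recognise the same DNA element.

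The genes lay on 7 chromosomes (GRCm38, GENCODE M21 annotation, positions from 1). Muc19 (chr15:91838326-91934555) and Smgc (chr15:91838265-91861438) lie on the plus strand and overlap: their starts are 61 bases apart and Muc19 ends 73117 bases beyond Smgc. Of the Smgc span, 99.74% lies inside Muc19. Of the 30 annotated Smgc exons, 4 overlap a Muc19 exon, and reads in those cannot be told apart. How reads in the rest of the shared span were split between the 2 genes was not tested. This annotation types Muc19 as a processed transcript, and the other genes of the set as protein coding. Bpifa1 (chr2:154142880-154149219), Defb45 (chr2:152593191-152599399) and Wfdc2 (chr2:164562413-164568510) share chromosome 2 at a distance from each other. Defb1 lies at chr8:21776599-21795185, Wfdc18 at chr11:83709015-83711348, Fam25c at chr14:34351881-34355433 and Sprr1a at chr3:92483952-92485895. Dcpp1 (chr17:23880876-23882853) overlaps the annotated Dcpp2 gene, and both are near copies of Dcpp3, so the split of reads among these 3 genes is uncertain.

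Promoter windows of 250 bases before the start were taken from the RefSeq table for GRCm38.p6, which held 8 of the 10 genes, all but Muc19 and Defb1. The following stretches of 30 bases show a feature that 6 of the 8 share. Capitals mark TATAA, the core of the TATA box, on the strand of the gene.
Smgc (chr15:91838286-91838315, plus strand): gttgagatggccTATAAatacgcgggctag
Fam25c (chr14:34355405-34355434, minus strand): gtggtaggcataTATAAaaagcacgctctt
Bpifa1 (chr2:154142839-154142868, plus strand): caactgccattcTATAAaagcggtgattct
Dcpp1 (chr17:23880838-23880867, plus strand): gccccagaagcaTATAAggggaggggacag
Wfdc18 (chr11:83708961-83708990, plus strand): tcagatatgaaaTATAAaaagagtcaagtt
Sprr1a (chr3:92485907-92485936, minus strand): aggtgttcttctTATAAaaagccagctgcc
The motif began 26 to 31 bases before the RefSeq start in the first 5 genes and 43 bases before it in Sprr1a. Within 60 bases of the start it was present in 6% of the 27025 promoters of the table. The motif was searched after these sequences had been read, so the share in the 10 genes is a description. GENCODE places the start of Fam25c 40 bases further upstream, that of Smgc 63 bases and that of Sprr1a 14 bases, and that of Wfdc18 11 bases downstream, so the distances depend on the annotation.

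A pair of letter patterns of the shared steroid receptor element were also searched, on both strands of the 250 bases. The full palindromic element, with a unit on each strand and a gap between them, was found in none of the 8 promoters and in 0.381% of all promoters. The 6-base unit AGAACA was found in 2 of the 8 and in 16.2% of all promoters. Both matches read TGTTCT on the gene's strand, shown in capitals below.
Bpifa1 (chr2:154142680-154142705, plus strand): ccatctcaaaTGTTCTtatttaattt
Sprr1a (chr3:92485918-92485943, minus strand): ttcctggaggTGTTCTtcttataaaa
These matches are letters in a window, not measured binding.

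The libraries held 4940, 2241, 5857, 5514 and 5470 barcodes, listed with batch 1 first and the placebo library first within each batch. Batch 1 was shallower, with medians of 8211 and 6172 UMIs per barcode against 23702 to 25315 in batch 2. Any 2 libraries shared 2 to 12 barcodes. Clusters with epithelial marker genes (Epcam, Krt8, Krt18) held 3, 61, 2855, 3117 and 3294 cells in the same order. Placebo 1, in which 4152 cells were T cells, thus gave almost no tumour cells, and 3 cells were too few for a level. Krt8 was found in 99.5% to 100% of the epithelial cells of batch 2 after thinning to 5000 UMIs. Because both progesterone libraries of batch 2 may come from 1 animal and 1 placebo library carries the tumour cells, treatment and tumour cannot be told apart in these cells.

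Muc19, Smgc and Defb1 were near 0 in the tumour cells of Placebo 2 and high in those of Progesterone 2 and Progesterone 3. They were also found in Progesterone 1, in few cells. Levels are given as CPM, the UMIs of the gene scaled to a fixed total of UMIs of the cells, which counts molecules and is not scaled by length. Muc19, the gel-forming mucin, stood at 43.5 CPM in Progesterone 1 (121 UMIs), 117 in Progesterone 2 and 107 in Progesterone 3, against 0.032 in Placebo 2 (5 UMIs). In Progesterone 1, 4 of the 61 cells held 95% of the Muc19 UMIs and 1 cell held 49.6%. Ptprc, a gene of all white blood cells, had a UMI in 29.5% of those 61 cells, against 1.85% to 3.69% in batch 2. The marker gate described below leaves out cells with a Ptprc UMI. It gave 12 Muc19 UMIs (4.17 CPM) and 16 Smgc UMIs (5.55 CPM) in Progesterone 1. Its richest Muc19 cell there held 3 UMIs, against 60 among the 61 cells. Smgc stood at 12.6 CPM in Progesterone 1, 67.2 in Progesterone 2 and 63.6 in Progesterone 3, and 1 UMI was counted in the 2855 cells of Placebo 2. Against that single UMI the ratio was 10500 in Progesterone 2 (exact 95% counting interval 1890 to 415000) and 9950 in Progesterone 3 (1790 to 393000). Defb1, the beta-defensin gene, stood at 216 CPM in Progesterone 1, 105 in Progesterone 2 and 101 in Progesterone 3, against 0.205 in Placebo 2 (32 UMIs). For each of the 3 genes the 2 progesterone libraries of batch 2 lay close together and no progesterone library reached down to Placebo 2. These intervals cover counting error only.

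Fam25c had the same order at a smaller ratio. Its level was 61.1 CPM in Progesterone 1, 14.2 in Progesterone 2 and 12.8 in Progesterone 3, against 0.307 in Placebo 2 (48 UMIs). The ratio to Placebo 2 was 46.4 in Progesterone 2 and 41.6 in Progesterone 3. In Progesterone 1, 44.1% of the Fam25c UMIs lay in 1 cell. In an edgeR fit over the 4 libraries with at least 10 epithelial cells, with the batch as a term, the log2 ratio of progesterone to placebo was 11.06 (SE 0.21) for Muc19. It was 11.42 (SE 0.22) for Smgc, 8.72 (SE 0.17) for Defb1 and 5.24 (SE 0.18) for Fam25c. With the batch term these ratios compare Placebo 2 with Progesterone 2 and Progesterone 3 and rest on 1 residual degree of freedom. The values for genes with few placebo UMIs depend on the prior count of the fit, and the SEs do not cover the choice of method. Each SE here and below is the log2 ratio, without its sign, divided by the square root of the F statistic of the fit. It does not cover the counting error of a placebo count as small as 1 UMI for Smgc or 5 for Muc19. For Smgc in Progesterone 2 the counting interval given above, from 1890-fold to 415000-fold, is far wider than the SE. Over the alternatives Muc19 ran from 7.30 to 11.60, Smgc from 6.48 to 13.15, Defb1 from 6.53 to 9.09 and Fam25c from 3.25 to 6.08. The lowest value of each came with UMIs thinned to the lowest library total.

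Defb45, Dcpp1 and Bpifa1 had the opposite order. Defb45, the second beta-defensin gene, stood at 72.8 CPM in Placebo 2 (11380 UMIs), 0.189 in Progesterone 2 (33 UMIs) and 0.16 in Progesterone 3 (25 UMIs). No Defb45 UMI was counted in Progesterone 1, which allows up to 1.08 CPM. Dcpp1 stood at 247 CPM in Placebo 2 (38622 UMIs), 1.07 in Progesterone 2 and 5.38 in Progesterone 3, and it too had no UMI in Progesterone 1. Its copies followed at low counts in Placebo 2, with 306 UMIs of Dcpp2 and 9 of Dcpp3. Bpifa1 was found on both sides: 126 CPM in Placebo 2, 29.5 in Progesterone 1, 15 in Progesterone 2 and 19 in Progesterone 3. Placebo 2 exceeded Progesterone 2 by 384-fold for Defb45 (counting interval 273 to 559), 230-fold for Dcpp1 (199 to 267) and 8.45-fold for Bpifa1 (8.11 to 8.8). Against Progesterone 3 the Dcpp1 ratio was 45.9. The Dcpp1 counts of both progesterone libraries rested on few cells: 1 cell held 69.5% of the 187 UMIs of Progesterone 2 and 1 cell held 57.7% of the 839 UMIs of Progesterone 3. Cells with a Dcpp1 UMI numbered 12 and 21, at shares of 0.385% (exact 95% interval 0.199% to 0.672%) and 0.638% (0.395% to 0.973%), which overlap. The fitted log2 ratios were -8.71 (SE 0.13) for Defb45, -6.42 (SE 1.52) for Dcpp1 and -3.04 (SE 0.13) for Bpifa1. Without cluster 12, which held both of those rich cells, the Dcpp1 value was -9.25.

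The remaining 3 genes were present in both treatments. Sprr1a, the cornified envelope gene, stood at 1035 CPM in Placebo 2, 634 in Progesterone 1, 305 in Progesterone 2 and 312 in Progesterone 3, a fitted log2 ratio of -1.89 (SE 0.10). Wfdc2 stood at 3500 CPM in Placebo 2, 2110 in Progesterone 1, 3182 in Progesterone 2 and 3024 in Progesterone 3, a log2 ratio of -0.32 (SE 0.13). The sign of Wfdc2 turned when Placebo 1 entered the fit: its log2 ratio was 0.29 in cells gated on markers and 0.22 with unnamed epithelial clusters added. In the same cells without Placebo 1 it was -0.12 and -0.25. Wfdc18 stood at 37.8 CPM in Placebo 2, 14.4 in Progesterone 1, 8.03 in Progesterone 2 and 5.84 in Progesterone 3. Most of its UMIs lay in 2 small sub-clusters led by Wfdc18 and the milk genes Csn3 and Ltf, which held 29, 5, 11 and 7 cells in that order. Those cells carried 95.9% of the Wfdc18 UMIs of Placebo 2, 95.2% of Progesterone 2, 88.7% of Progesterone 3 and all 40 of Progesterone 1. In the other epithelial cells Wfdc18 stood at 1.56 CPM in Placebo 2, 0.385 in Progesterone 2 and 0.661 in Progesterone 3.

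**Figure D1:**
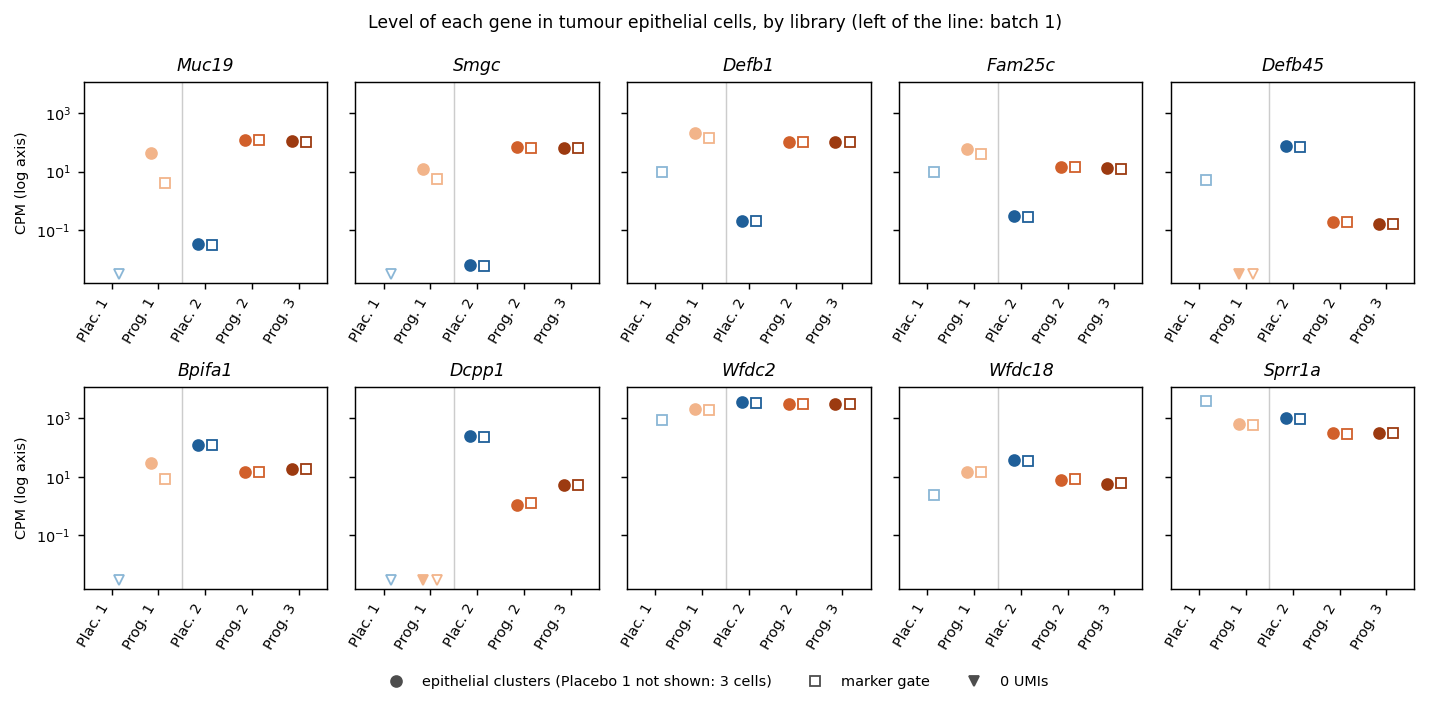
Level of each of the 10 genes (CPM, log axis) in each library, in epithelial clusters (filled circles) and in cells gated on Epcam, Krt8 or Krt18 (open squares); triangles at the bottom mark 0 UMIs and the grey line parts batch 1 from batch 2. Muc19, Smgc, Defb1 and Fam25c are low in Placebo 2, and Defb45, Bpifa1 and Dcpp1 are high there but not in Placebo 1.

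A second choice of cells brought in Placebo 1. Cells with at least 3 UMIs of Epcam, Krt8 or Krt18 and no UMI of Ptprc numbered 136 in Placebo 1, 269 in Progesterone 1 and 3864 to 4454 in batch 2. The gated cells of Placebo 1 were shallow (median 1720 UMIs), and 132 of the 136 came from unnamed clusters. Those of Progesterone 1 were shallow too (median 3352 UMIs). Of these 269 cells, 41 were of the epithelial class and 207 came from unnamed clusters with epithelial as the best score. The gate also let in other classes, such as 284 fibroblasts and 71 macrophages in Placebo 2. In the gated cells of Placebo 1, Muc19, Smgc, Bpifa1 and Dcpp1 had no UMI, Defb45 had 2, and Defb1 and Fam25c had 4 each. Set against Epcam, Krt8 and Krt18, of which these Placebo 1 cells held 3504 UMIs, the ratio seen in Placebo 2 would have given an expected 43.7 UMIs of Dcpp1, 22.1 of Bpifa1 and 12.4 of Defb45. The Dcpp1, Bpifa1 and Defb45 levels of Placebo 2 were thus not met in the other placebo library. The ratio seen in Progesterone 2 would have given 36.3 UMIs of Muc19, 20.8 of Smgc and 32.7 of Defb1, against 0, 0 and 4 counted. That ratio was not met in Progesterone 1 either, whose gated cells held 12 UMIs of Muc19 and 16 of Smgc where it would have given 269.9 and 154.5. At the ratio of Progesterone 1 itself, 1.61 UMIs of Muc19 and 2.15 of Smgc would be met in Placebo 1, so a count of 0 does not part these 2 libraries at this depth. For Defb1 the Progesterone 1 ratio would have given 53.2 UMIs. Fam25c in Placebo 1 was not near 0 as in Placebo 2: its 4 UMIs (9.89 CPM) stand beside 4.45 at the Progesterone 2 ratio, 15.2 at that of Progesterone 1 and 0.0515 at that of Placebo 2. In batch 1 alone the gated level of Defb1 was 9.89 CPM in Placebo 1 (4 UMIs) and 137 in Progesterone 1 (396 UMIs, of which 46.5% lay in 1 cell).

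Sprr1a was high in the same Placebo 1 cells, at 4010 CPM (1622 UMIs in 80.1% of the 136 cells), where the ratio of Placebo 2 would have given 178 UMIs. Wfdc2 stood at 878 CPM there. The gated level of Sprr1a was 593 CPM in Progesterone 1, 40.3% of it in 1 cell. Sprr1a was lower in the progesterone library in both batches, with a log2 ratio of -2.76 in batch 1 and of -1.70 and -1.66 in batch 2. The part of cell depth in these batch 1 values was not tested.

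For most of these genes, 5% of the epithelial cells held most of the UMIs in the libraries where the gene was high. Of the genes higher in Placebo 2, Wfdc18 and Dcpp1 were the most concentrated there. In that library 5% of the epithelial cells (143 cells) held all the Wfdc18 UMIs and 98.4% of the Dcpp1 UMIs. Only 137 cells had a Wfdc18 UMI, and 95.9% of its UMIs lay in the 29 milk gene cells, which are not in the tumour clusters. The richest Dcpp1 cell held 2064. Muc19 was found in 32.8% of the cells of Progesterone 2 and 29.8% of Progesterone 3, where an even rate in all cells would have given 94.3% and 92%. The top 5% of cells held 66.7% and 71.4% of its UMIs. For Smgc the top 5% held 74.1% and 74.2%, for Defb1 68.9% and 71.1%, and the richest Smgc cell had 507 UMIs. In Placebo 2 the top 5% held 57.2% of the Defb45 UMIs and 64.4% of the Bpifa1 UMIs, though these genes were found in 40.4% and 46.3% of its cells. Fam25c and Sprr1a were less concentrated. The top 5% held 41.6% and 40% of the Fam25c UMIs in Progesterone 2 and 3, and 34.1% of the Sprr1a UMIs in Placebo 2. Wfdc2 was nearer to even, with 22.6% to 26.7% in the top 5% in batch 2, and it was found in 99.6% to 99.8% of the cells there. Depth per cell, which varied between cells, was not removed from these shares.

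**Figure D2:**
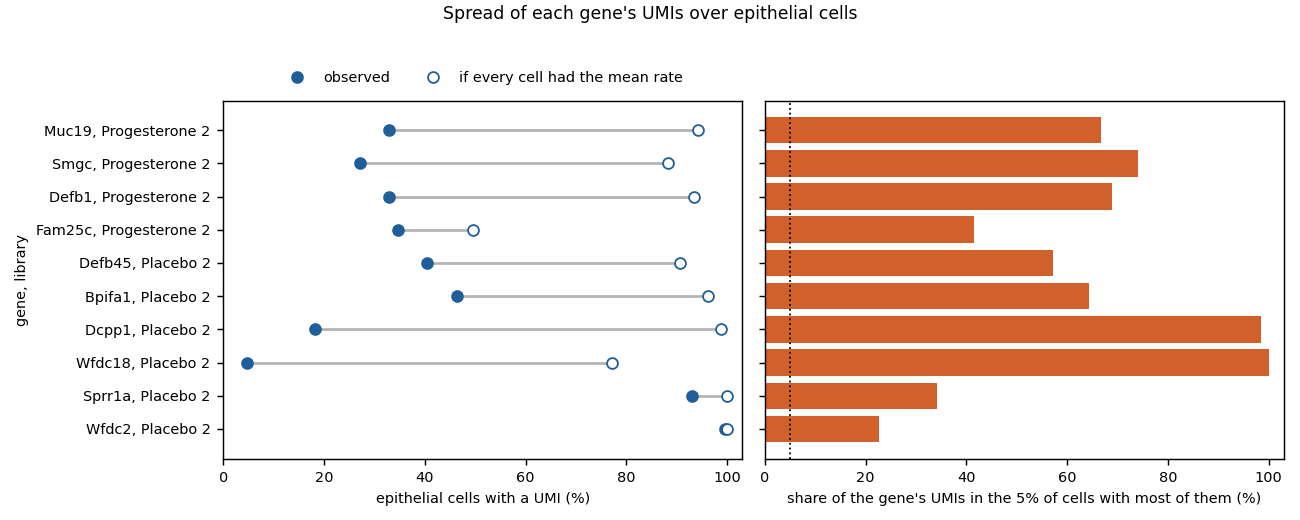
Left, share of epithelial cells (%) with a UMI of each gene in the library named beside it (filled) and the share if every cell had the mean rate (open); right, share (%) of the gene's UMIs held by the 5% of cells with most of them, with a dotted line at 5%. Dcpp1 (98.4%) and Wfdc18 are the most concentrated, and Wfdc2 (22.6%) the least.

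Thinning each cell to 5000 UMIs, which left out 14, 35, 66 and 124 cells in the order Progesterone 1, Placebo 2, Progesterone 2 and Progesterone 3, left the same genes high in the same libraries. Muc19 was found in 16.7% of the cells of Progesterone 2 (exact 95% interval 15.4% to 18.1%), 15% of Progesterone 3 and 4.26% of Progesterone 1 (0.52% to 14.5%). It was found in 0 of 2820 cells of Placebo 2, which allows a share of up to 0.106%. Defb1 was found in 14.9%, 14.1% and 19.1% of the cells of Progesterone 2, Progesterone 3 and Progesterone 1, and in 0.142% of Placebo 2. Defb45 was found in 16.4% of the Placebo 2 cells and Bpifa1 in 19.7%, against 0.0983% and 4.75% in Progesterone 2. Macrophages, which should lack these genes, gave 1.72% for Muc19 and 2.8% for Defb1 in Progesterone 2 and 1.07% for Defb45 in Placebo 2 at the same depth. Without thinning the Muc19 share in Progesterone 2 was 32.8% in epithelial cells (median 50012 UMIs) and 4.89% in macrophages (median 12886 UMIs).

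Tumour cells fell into 5 clusters made mostly of progesterone cells and 2 made mostly of Placebo 2 cells. The clusters were formed from all variable genes, these 10 among them, so the levels below describe them. Among the progesterone-led clusters, Muc19 was highest in cluster 21, led by Ntm and Naaladl2, at 312 CPM in Progesterone 2 and 236 in Progesterone 3. It was lowest in cluster 14, led by the hypoxia-response genes Ndrg1, Bnip3 and Ankrd37, at 25.7 and 36.9 CPM. Defb1 was highest in cluster 12, led by Defb1, Smgc and Krt15, at 173 and 192 CPM, and lowest in cluster 21, at 32 and 32.2 CPM. Bpifa1 stood at 50 and 45.8 CPM in cluster 14 and at 3.29 to 12.1 CPM in the other 4. Both progesterone libraries of batch 2 gave these orders. Cluster 21 was the shallowest of the 5, with a median of 0.956 times the library median of UMIs per cell, against 1.72 to 2.71. The part of depth in these levels was not tested.

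Dividing cells carried these genes too. Cluster 11, led by the mitotic genes Ube2c, Cenpf and Top2a, had 130 and 110 CPM of Muc19. In Placebo 2, cluster 24, led by S-phase and histone genes, had 23.2 CPM of Dcpp1 against 316 in cluster 23, the main Placebo 2 cluster, while Defb45 stood at 43.3 against 83.4 CPM.

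A few cells sat in clusters led by the other treatment. Of the Placebo 2 cells, 84 lay in the 5 progesterone-led clusters, and they held 2 UMIs of Muc19 in all (0.489 CPM, against 117 in the Progesterone 2 cells of those clusters). They were also low in the genes of their own library, with 0.977 CPM of Dcpp1 and 4.15 of Bpifa1. In cluster 23, 12 cells of Progesterone 2 had no Muc19 or Defb1 UMI and 143 CPM of Bpifa1, close to the 146 CPM of the Placebo 2 cells there. The 5 cells of Progesterone 3 in that cluster had 2296 CPM of Bpifa1, of which 496 UMIs were in 1 cell. Cluster 12 held Plac8, a gene also listed for monocytes, among its leading genes, while the white blood cell genes Ptprc, Ly6c2 and Ccr2 were at 0.535, 0.475 and 0.0396 CPM in its Progesterone 2 cells.

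**Figure D3:**
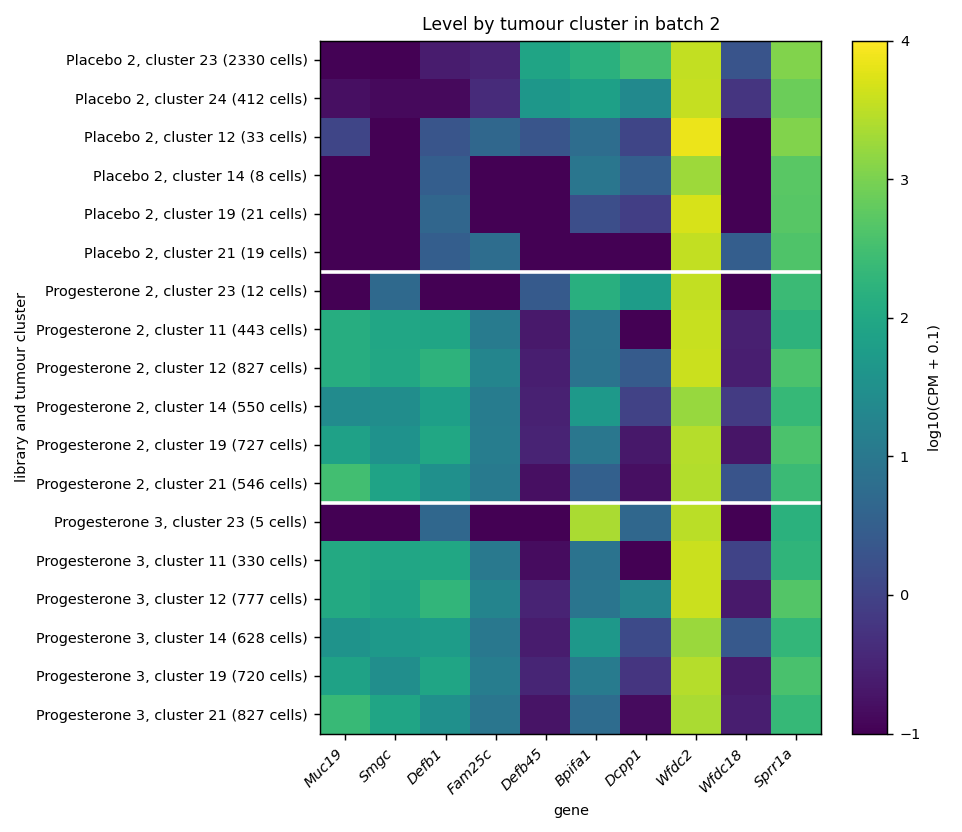
Level of each gene (colour, log10 of CPM plus 0.1) in each tumour cluster with cells of Placebo 2, Progesterone 2 or Progesterone 3; cell numbers stand beside the rows. Placebo 2 cells of the progesterone-led clusters stay dark for Muc19 and Smgc, and Bpifa1 is brightest in the 5 Progesterone 3 cells of cluster 23.

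Muc19 and Smgc, which share a locus, were found together in the same cells. The part of reads counted for the wrong one of these 2 overlapping genes was not tested. At 5000 UMIs per cell, 233 cells of Progesterone 2 held both, where independent detection would give 55.5, a ratio of 4.20, and in Progesterone 3 the ratio was 4.29. Of the Smgc cells of Progesterone 2, 71.2% held Muc19, against 10.4% of the cells without Smgc. Across the 3041 and 3164 tumour cells thinned to this depth, their log counts had a Pearson correlation of 0.575 and 0.595. Defb1 was shared with Fam25c at a ratio of 1.82 in Progesterone 2 and 1.76 in Progesterone 3. Defb1 was close to independent of the locus on chromosome 15, at 1.13 and 1.14 with Muc19 and 1.23 and 1.15 with Smgc. Muc19 and Bpifa1 met less often than independence gives, at 0.528 and 0.658, from 13 and 12 cells. Of the 4 progesterone-side genes, 5 cells of Progesterone 2 and 2 of Progesterone 3 held all, and 65% and 66.2% held none at this depth.

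In Placebo 2 the close pair was Bpifa1 and Dcpp1, with 122 cells against 38.8 under independence (ratio 3.15, Pearson correlation 0.467 over 2797 cells). Of the Dcpp1 cells, 62.9% held Bpifa1. Defb45 met Bpifa1 at a ratio of 1.38 and Dcpp1 at 0.953, the latter near the value of 1 that independence gives. Cells with Muc19 or Smgc and also Defb45 or Dcpp1 numbered 15 in Progesterone 2 and 17 in Progesterone 3 with all UMIs, where 14.6 and 15.3 would be met by independence. The progesterone receptor gene Pgr met Muc19 at ratios of 0.947 and 0.917 and Defb1 at 1.04 and 1.09. The proliferation gene Mki67 met Muc19 at 1.36 and 1.31. All cells of a library share its free RNA and cluster structure, so these ratios are descriptions without a test.

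**Figure D4:**
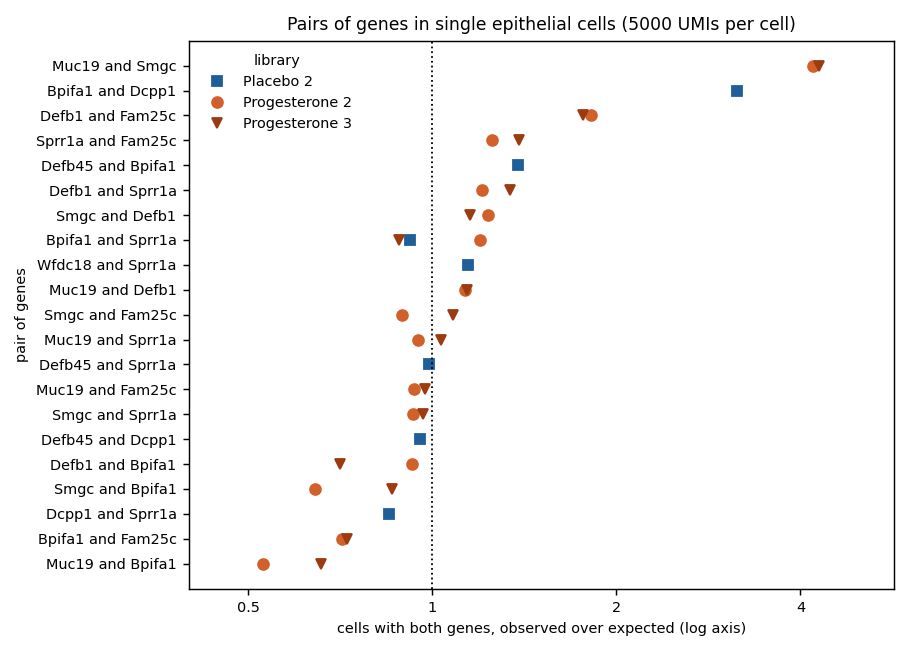
Number of epithelial cells with both genes over the number that independent detection gives (log axis), at 5000 UMIs per cell. Pairs with enough cells are shown, and pairs with Wfdc2 were left out. Squares are Placebo 2, circles Progesterone 2, triangles Progesterone 3, and the dotted line marks 1. Muc19 and Smgc (4.20 and 4.29) and Bpifa1 and Dcpp1 (3.15) stand to the right of the other pairs.

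The genes whose log levels followed each member most closely across cells were taken, with all UMIs scaled to a fixed total per cell and no thinning, as the 3 highest mean Pearson correlations over the batch 2 libraries in which the member was found in at least 5% of the cells. For Muc19 they were Smgc (0.746 over 2 libraries), the contactin gene Cntn1 (0.348) and Itih2 (0.315), and for Smgc they were Muc19, Itih2 (0.298) and Cxcl15 (0.279). For Defb1 they were B2m (0.336), Por (0.253) and the ligand gene Wnt4 (0.222). In Placebo 2 alone they were Bpifa1 (0.49), Tns1 (0.411) and the mucin gene Muc5b (0.395) for Dcpp1, and Ctsl (0.3), Ifitm1 (0.283) and 2210407C18Rik (0.275) for Defb45. Over 3 libraries they were Cd24a (0.239), Psmb8 (0.234) and Qsox1 (0.227) for Bpifa1, and Sprr1a followed S100a16 (0.297), S100a6 (0.293) and S100a11 (0.291). Wfdc2 followed S100a6 (0.603), S100a10 (0.59) and Txn1 (0.582), above the highest value of every other member but Muc19 and Smgc. Fam25c followed Fxyd3 (0.233), Aldh3b2 (0.231) and Krt15 (0.231). All but the pair on chromosome 15, those of Wfdc2 and that of Dcpp1 with Bpifa1 were at 0.411 or less. Cells of a library share their depth range.

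Genes related to the 10 by family or role were tested in the same cells. The lists were drawn up with earlier results of these data known, on the contrast that chose the 10. The calls are thus not independent of those results. They formed 8 lists of 150 genes without the 10, of which 144 were in the files and 98 passed a filter on low counts. Of these, 17 were higher and 46 lower under progesterone at an adjusted p under 0.05 (edgeR, Benjamini-Hochberg over all genes), where 48.6% of all 16411 genes tested were called (23.9% higher, 24.7% lower). The test compares 1 placebo library with 2 progesterone libraries that may come from 1 animal. With the marker gate and Placebo 1 in the fit it called 1 of the listed genes (Lbp) and 32 genes in all; with the same gate and no Placebo 1 it called 62 listed genes. Without the batch term it called 19. The number called among all genes fell in that fit as well. The genes named below are up to 3 of each list with the largest change among those called in the main fit.

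Of 10 tested mucin genes, 8 were lower and 1 was higher, with a median log2 ratio of -1.96 against 0.02 for all genes. Muc20, a membrane mucin, was lower by a log2 ratio of -4.93, from 2.11 CPM in Placebo 2 to 0.0631 and 0.0577 in Progesterone 2 and 3. Muc13 went from 22 CPM to 1.07 and 1.45, and the gel-forming Muc5b from 16.1 to 0.884 and 1.21. In Progesterone 1 Muc13 stood at 20.5 CPM and Muc20 at 1.44, near Placebo 2, and Muc5b at 0.719. Of 21 tested genes of mucin glycosylation and folding, 3 were higher and 10 lower. The 3 largest changes were rises from very low levels: Galnt12 (log2 ratio 4.64), Gcnt3 (3.92) and Ern2 (2.82).

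Of 13 tested defensin and antimicrobial genes, 9 were lower and 1 was higher, with a median log2 ratio of -3.03. The largest were Reg3b (-6.46), Defb36 (-4.68) and Defb14 (-3.83), all at 3.02 CPM or less in Placebo 2. All 4 tested genes of the BPI fold family, to which Bpifa1 belongs, were lower, led by Bpifb1 (-4.72), Lbp (-2.90) and Bpifb4 (-2.33). Of 10 genes with whey acidic protein domains, 4 were lower and 1 was higher. Wfdc3 fell from 36.4 CPM in Placebo 2 to 0.155 and 0.16 (log2 ratio -7.85), and Wfdc21 by a log2 ratio of -2.91. Wap, a milk protein gene, was called higher on 0 UMIs in Placebo 2 against 5 and 12, which is at least 1.5-fold and 4.01-fold against 3 counts.

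Of 10 tested salivary and serous gland genes, 5 were higher and 2 lower. Klk1, a kallikrein gene (log2 ratio 3.10), and Pigr, the receptor that carries polymeric antibodies across epithelia (2.60), were higher, and Dcpp2 was lower (-5.13). Of 17 cornified envelope genes, 3 were higher and 5 lower. Sprr2g (-4.53) and Sprr2h (-2.76), of the same family as Sprr1a, were lower, and Calm4 was higher (3.64). Of 14 transcription factor genes of secretory cells, 3 were higher and 4 lower. Spdef, a factor of mucous and serous cells, rose from 2.33 CPM to 9.56 and 9.45 (1.87), Creb3l4 rose (1.93) and Creb3l1 fell (-1.64).

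In macrophages of batch 2, where at least 10 UMIs were counted, the 10 genes were found at a small share of their epithelial level. Shares on fewer UMIs were unsteady, such as 337.5% for Muc19 in Placebo 2 from 1 UMI. In macrophages of Progesterone 2, Muc19 reached 5% of its epithelial CPM (84 UMIs), Smgc 4.86%, Defb1 5.87% and Wfdc2 5.8%, while Epcam, Krt8 and Krt18 together reached 4.29%. In Progesterone 3 the shares were 2.46%, 3.2%, 3.81% and 4.81% against 3.79% for the epithelial markers. In Placebo 2, Defb45 reached 4.6%, Bpifa1 2.82%, Dcpp1 1.35% and Sprr1a 5.2% against 3.58%. Of 20 values with at least 10 UMIs, 15 lay within 2-fold of the epithelial markers. Fam25c (9.76% and 11.3% in Progesterone 2 and 3) and Wfdc18 (9.7% in Placebo 2 and 13.8% in Progesterone 2) were above that range. Their counts were 12 to 34 UMIs. Dcpp1 in Placebo 2 was below that range.

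**Figure D5:**
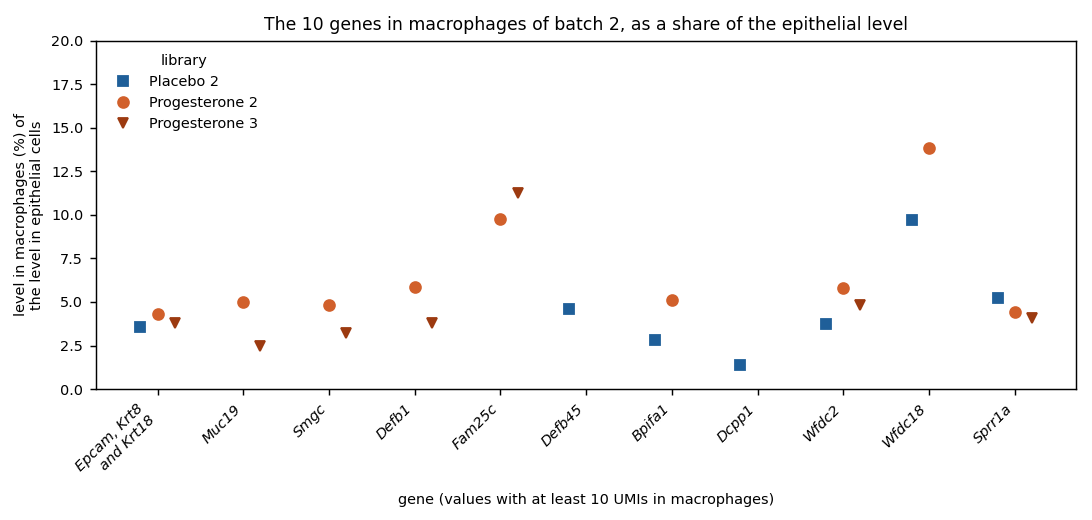
Level in macrophages as a share (%) of the level in epithelial cells of the same library, for the epithelial markers Epcam, Krt8 and Krt18 together and for each gene with at least 10 UMIs in macrophages; squares are Placebo 2, circles Progesterone 2, triangles Progesterone 3. Most genes sit near the epithelial markers (3.58% to 4.29%), and Fam25c and Wfdc18 lie higher.

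The 10 genes were chosen on tumour cells of these libraries, and most of their macrophage counts lay near the level of tumour RNA given above. The levels in macrophages by treatment are thus not independent of that choice, and are a description from which nothing is read about macrophages. In an edgeR fit over all 5 libraries, 7 of the 10 genes passed the filter on low counts and 3 of those 7 passed the threshold, where 1.11% of 11945 genes did (0.477% higher and 0.628% lower). Placebo 1 held 16 macrophages, so a level of 0 there says little. Defb1 was at 0 CPM in Placebo 1 and Placebo 2 and at 0.329 (2 UMIs), 6.18 and 3.84 in Progesterone 1, 2 and 3 (log2 ratio 4.34, SE 0.67). Smgc was at 0 in both placebo libraries and in Progesterone 1, and at 3.26 and 2.04 CPM in the others (3.48, SE 0.67). Sprr1a, the third, had a log2 ratio of -1.88 (SE 0.28), at 53.8 CPM in Placebo 2 against 13.5 and 12.8 in Progesterone 2 and 3. The epithelial markers reached 0.395% of their epithelial level in Progesterone 1 and 3.58% to 4.29% in batch 2, and their part in these values was not tested. The number past the threshold went to 0 with DESeq2 and to 0 without the batch term, and to 9 of 10 genes when Placebo 1 or Progesterone 1 was left out. Without Placebo 2 it was Wfdc18 alone, and without Progesterone 2 or without Progesterone 3 there was none.

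The same holds for T cells. Of 2 genes that passed the filter, 0 were called by edgeR and 0 by DESeq2, and 1, Wfdc2, had an unadjusted p under 0.05. Wfdc2 had a log2 ratio of 1.76 (SE 0.67) and was called when Placebo 2 was left out. Of all 7741 genes tested in T cells, 0.0129% were called. In the 4152 T cells of Placebo 1, Wfdc2 stood at 0.447 CPM and Sprr1a at 1.2, against 173 and 44.3 in Placebo 2.

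Cells of unnamed clusters were also summed by library. Of the 10 genes, 5 were higher there in all 3 progesterone libraries than in both placebo libraries, where 5.31% of the 12948 genes with at least 20 UMIs in these cells had that order. Most unnamed cells that passed the marker gate scored highest for epithelial markers, and the 10 genes were chosen on tumour cells of these libraries, so nothing is read from that count.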

How the data were processed

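The deposited matrices hold UMI counts per gene and barcode, used as the authors deposited them. Cell Ranger 8.0.1 made them per the file headers; Cell Ranger 7.0.0 and mm10 stand in the submitters' processing notes. The 10 genes and the gene lists were chosen with earlier results of these data known. Cells with at least 250 genes were kept and doublets scored per library were removed (1.79% to 4.68% of barcodes). With scanpy 1.11.5, 2000 variable genes, 30 components and 20 neighbours gave Leiden clusters at resolution 1, with no batch integration. Clusters were named from marker lists. After the clusters were seen, 2 rules changed: a name was refused only at 2 or more markers of another class among the 10 leading genes, which kept cluster 12 despite Plac8, and mixed clusters were clustered again. Clusters 7.3 and 7.6, the milk gene sub-clusters, came from this step. Unnamed cells numbered 220, 479, 1366, 802 and 861, with batch 1 first and placebo first within a batch.

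Counts were summed per library and class (at least 10 cells) and then went into edgeR 4.0.16 (R 4.3.3; quasi-likelihood test, TMM, filterByExpr, batch term), a threshold of 0.05 after Benjamini-Hochberg adjustment. The edgeR fits were tested on simulated data. Named genes were all 10 members, at most 3 called genes of each list and the 3 closest genes of each member. Co-detection used tumour clusters and cells thinned without replacement to 5000 UMIs. A count of 0 was given a limit of 3 counts. The TATAA window was widened from 40 to 16 bases before the start (3.83% of promoters, 5 of 8 members) to 60 bases after Sprr1a was seen to be missed. Intervals are exact (Clopper-Pearson or conditional binomial) and cover counting error only. Alternatives were DESeq2 1.42.0, other size factors, no filter, no batch term, thinned UMIs, libraries left out and other choices of cells. Sharing a batch is all that pairs the libraries, per the titles. Proteins and Muc19 and Defb1 promoters were not used here.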

Additional observations from a re-analysis of the deposited data

Results flagged for a closer look

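Cells of unnamed clusters belong to no class of the main comparisons. They enter above through the marker gate, the alternative that adds them and their own sums by library. Among them 5 of the 10 genes were higher in all 3 progesterone libraries than in both placebo libraries, as were 5.31% of 12948 genes. The 10 genes were chosen on tumour cells of these libraries. The lowest progesterone value was 2.12 CPM for Muc19 (Progesterone 1, against 0 in both placebo libraries) and 0.529 CPM for Smgc (1 UMI, against 0). It was 62.4 CPM for Defb1 (Progesterone 3, against 6.42 and 0.12 in Placebo 1 and 2) and 11.8 CPM for Fam25c (against 8.02 and 0.24). For Wfdc2 it was 1377 CPM (Progesterone 1), against 656 and 1193. These cells numbered 220 to 1366 per library, and most of those that passed the marker gate scored highest for epithelial markers. Their makeup differed between libraries.

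Wfdc2 moved in opposite directions in the 2 batches among gated cells. Its log2 ratio of progesterone to placebo was 1.13 in batch 1, from 878 to 1919 CPM, and -0.0375 and -0.111 in Progesterone 2 and 3 of batch 2. This difference was not tested, and the batch 2 differences are small.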

How the results depend on the processing

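Of 10 genes, 4 were higher in both progesterone libraries of batch 2 under each of the 7 other choices of cells or depth. Of 130 log2 ratios under alternatives, 128 kept their sign; Wfdc2 turned from -0.32 to 0.29 with the marker gate and to 0.22 with unnamed clusters added, both with Placebo 1 in the fit, and was -0.12 and -0.25 in those cells without it. Sizes moved more: Smgc ran from 6.48 to 13.15 and Dcpp1 from -9.25 to -5.77. Pairs met at 1.5 times independence or more in both progesterone libraries numbered 2 of 21 at 5000 UMIs, 2 of 20 at 2500 and 1 of 35 without thinning. Defb1 and Fam25c dropped out, at 2.64 and 1.29 with 2500 UMIs and 1.41 and 1.42 without thinning, and Smgc and Fam25c came in with 2500 UMIs alone, at 2.07 and 2.17 (0.893 and 1.08 at 5000). The 63 called related genes became 19 with no replicate block (no batch term), 30 with UMIs thinned to the lowest total, 41 with unnamed clusters added and 1 with the marker gate, both with Placebo 1 in the fit; in the same cells without Placebo 1 they were 64 and 62. DESeq2 called 45. The 3 calls in macrophages became 0 with DESeq2, with no replicate block and with thinned UMIs, 9 with no filter, and 0 to 9 with each library left out; 9 came without Placebo 1 and without Progesterone 1, 1 without Placebo 2, and 0 without Progesterone 2 and without Progesterone 3. In T cells 1 was called with no filter (Defb1), and 0 to 1 with each library left out (1 without Placebo 2, Wfdc2). Otherwise the cause was not tested. Where the related genes called fell to 45 or fewer, the number called among all genes fell as well. The related genes could not be fitted without Placebo 2, the only placebo library with enough cells, or without Progesterone 2 or 3, which leaves no residual degree of freedom. The marker gate for related genes, the fits of other cells without Placebo 1, and leaving out the Plac8 cluster or the milk gene sub-clusters were chosen after seeing the data. Depth limits batch 1, where 0 UMIs in 61 cells allow 1.08 CPM.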
